A study of Mus musculus with 12 samples.

Results

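Tenascin-C, the thrombospondins and the SPARC proteins are matricellular proteins: they are secreted into the extracellular matrix, where they act on cells more than they build the matrix. The genes described are Tnc, Thbs1, Thbs2, Thbs3, Thbs4, Sparc and Sparcl1, 7 of the 55401 genes listed in the count table, and all 7 passed the filter on low counts. They were chosen by name with their levels (CPM) and fold changes in the 3 comparisons of these libraries already known. Their levels and differences are therefore given as a description, with no p-value. The test run on all genes also covered them, and nothing is read from its calls of these 7.

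The libraries come from cells of the brain subventricular zone of CD1 mice, cultured in 3 ways with 4 libraries each, from 4 independent litters per the labels. Postnatal OPC cultures, labelled oligodendrocyte precursor cells, came from mice aged P0-2: primary neurospheres were dissociated and plated as a monolayer for 2 days with PDGF-AA at 10 ng/mL and FGF at the same concentration. Adult NSC cultures, labelled neural stem cells, came from mice aged 2 months and were grown as neurospheres for 6 to 7 days with heparin (2 ug/mL), EGF (20 ng/mL) and FGF (10 ng/mL). Postnatal NSC cultures were grown in the same way from mice aged P0-2. All media were free of serum and held 2% B27, and no genotype or treatment was given beyond these. The OPC cultures differed from both NSC groups in growth factors, in attachment and in time, so that cell type and culture cannot be told apart, and the number of animals behind a culture was not given.

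Tenascin-C is a large glycoprotein of the stem cell niche beside the ventricles, where it binds integrins and receptor phosphatases and alters the response of progenitors to growth factors. Thrombospondins bind CD47, integrins and the calcium channel subunit alpha2delta-1; those from astrocytes promote the formation of excitatory synapses, and thrombospondin-1 also activates latent TGF-beta. SPARC binds collagens and slows cell spreading, and its relative SPARC-like 1, or hevin, promotes the formation of synapses and is opposed there by SPARC.

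Promoter sequence was at hand in RefSeq (GRCm38.p6) for 5 of the 7 genes, namely Tnc, Thbs2, Thbs3, Thbs4 and Sparc. The 250 bases before the start site are shown for the 2 genes that differed most between the cultures, Tnc and Thbs2, and for Thbs3, whose libraries spread least within a group among the thrombospondins. Each is read 5′ to 3′ on the strand of its gene, and the capitals mark a GC box or a TATA box found by letters on either strand.

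Tnc, chr4:64047016-64047265, minus strand: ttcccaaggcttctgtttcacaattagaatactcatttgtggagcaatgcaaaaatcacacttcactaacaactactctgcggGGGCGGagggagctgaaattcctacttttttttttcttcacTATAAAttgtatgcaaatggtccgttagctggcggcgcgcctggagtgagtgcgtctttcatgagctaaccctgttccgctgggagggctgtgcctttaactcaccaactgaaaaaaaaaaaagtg

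Thbs2, chr17:14694263-14694512, minus strand: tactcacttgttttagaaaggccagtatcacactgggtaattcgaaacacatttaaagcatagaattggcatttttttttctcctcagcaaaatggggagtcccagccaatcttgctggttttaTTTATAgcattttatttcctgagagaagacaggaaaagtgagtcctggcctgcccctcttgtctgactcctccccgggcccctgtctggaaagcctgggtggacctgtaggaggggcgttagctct

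Thbs3, chr3:89214930-89215179, plus strand: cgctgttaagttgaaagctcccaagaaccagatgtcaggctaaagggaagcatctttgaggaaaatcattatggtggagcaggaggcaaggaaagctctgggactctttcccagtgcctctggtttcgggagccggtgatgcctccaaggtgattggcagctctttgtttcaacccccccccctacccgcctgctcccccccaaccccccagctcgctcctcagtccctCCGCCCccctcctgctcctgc

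These windows lie outside annotated exons. The Tnc window holds the GC box letters GGGCGG 167 bases and the TATA box letters TATAAA 126 bases before the start. The Thbs2 window holds TATAAA on the opposite strand, also at 126 bases, and the Thbs3 window holds GGGCGG on the opposite strand at 21 bases. Of 32851 promoters of the same length, 32.7% hold GGGCGG and 12.4% hold TATAAA. The AP-1 letters TGANTCA (6.75% of promoters) and the CArG box (1.47%) were found in none of the windows of these 5 genes. Of the Sparc window, however, 238 of 250 bases lie in annotated exons of Sparc itself. Tnc has another window, not shown, from a start site at 64046936. It has 79 bases in Tnc exons and holds the same GC and TATA box letters at 246 and 205 bases. The TEAD letters GGAATG (12.6% of promoters) were found only for Thbs4, at 197 and 192 bases, beside GC boxes at 89, 51 and 42 bases. A match is a description of letters, not of a bound factor.

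The 4 postnatal OPC libraries held 17226501 to 23651396 counts, the adult NSC libraries 16756231 to 20064043, and those of postnatal NSC 38928989 to 54801726. Of 6 oligodendrocyte precursor markers, 4 were called higher in OPC than in postnatal NSC and 6 than in adult NSC, against 22.4% and 26.3% of all genes. But Olig1 averaged 2156.2 CPM (counts scaled to library size) in OPC, 1508.1 in adult NSC and 1619.7 in postnatal NSC, so the NSC cultures expressed it too. Of 6 neural stem markers, 2 were called higher and 3 lower in OPC than in postnatal NSC, and 3 higher and 3 lower than in adult NSC. Of all genes, 22.7% and 24.7% were called lower. The stem marker sum averaged 6456.5 CPM in OPC, 9236.5 in adult NSC and 7546.6 in postnatal NSC, with Fabp7 at 4176.0 CPM in OPC. A pair of libraries had a low summed level of 12 G1/S genes, used at DNA replication. Postnatal OPC 2 had 482.0 CPM against 1855.9 to 2180.4 in the other OPC libraries, and postnatal NSC 3 had 632.7 CPM against 1300.1 to 1749.6 in the other postnatal NSC libraries. Values without both are given where they matter. Summed markers of microglia were at most 1.97 CPM in any library, and those of endothelial cells at most 15.9 CPM. The summed level of 7 astrocyte markers ranged over 970.8 to 1629.4 CPM in OPC libraries, 1602.1 to 1704.3 in those of adult NSC and 1404.5 to 2485.3 in those of postnatal NSC. Markers of myelinating oligodendrocytes summed to 257.9 to 531.0, 140.3 to 177.3 and 326.6 to 900.6 CPM in the same order, and those of neurons and neuroblasts to 69.3 to 222.3, 14.6 to 23.5 and 41.9 to 118.1 CPM.

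Tnc (ENSMUSG00000028364.15, chr4:63959785-64047015, minus strand) was low in every OPC library and high in every adult NSC library. It had 47.1, 50.6, 40.5 and 42.8 CPM in postnatal OPC 1 to 4, 4015.4, 4117.2, 3216.4 and 4290.4 CPM in adult NSC 1 to 4, and 1116.0, 901.8, 487.4 and 2064.2 CPM in postnatal NSC 1 to 4. The 3 ranges did not overlap, and the postnatal NSC libraries spread most, with a highest value 4.23 times the lowest. The mean was 45.2 ± 4.52 CPM in OPC, 3909.9 ± 476.0 in adult NSC and 1142.3 ± 667.6 in postnatal NSC (SD, n = 4 each). In edgeR's quasi-likelihood fit of the 12 libraries, the log2 fold change was -4.66 ± 0.37 (SE) in OPC against postnatal NSC, or 25.2-fold lower. It was 1.78 ± 0.32 in adult against postnatal NSC, 3.42-fold higher, and -6.43 ± 0.40 in OPC against adult NSC, 86.4-fold lower. These libraries are of whole cultures, so fewer cells that express a gene and less RNA per cell cannot be told apart. By TPM, which also divides counts by exon length, Tnc ranked 7139 to 7922 among all genes in the OPC libraries, 58 to 85 in the adult and 170 to 772 in the postnatal NSC libraries.

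Among the thrombospondins, Thbs2 (ENSMUSG00000023885.9, chr17:14665500-14694235, minus strand), which promotes synapse formation and restrains vessel growth, was close to absent in OPC. It had 0.29, 0.938, 0.461 and 0.384 CPM in postnatal OPC 1 to 4, from 6, 23, 8 and 8 counts, 87.0, 100.5, 43.1 and 83.6 CPM in adult NSC 1 to 4, and 23.2, 26.6, 45.1 and 17.2 CPM in postnatal NSC 1 to 4. All OPC libraries were below all NSC libraries, while adult NSC 3, the lowest of its group, was just under postnatal NSC 3, the highest of its own. The log2 fold change was -5.70 ± 0.44 in OPC against postnatal NSC (52.1-fold lower), 1.49 ± 0.32 in adult against postnatal NSC (2.8-fold higher) and -7.19 ± 0.46 in OPC against adult NSC (146.0-fold lower). The summed level of 8 pericyte and fibroblast markers, cells in which Thbs2 is also known, was 3.8 to 9.62 CPM in OPC, 17.3 to 44.4 in the adult and 45.3 to 71.4 in the postnatal NSC libraries. Lum was at 0 in OPC and adult NSC, Dcn was at 0 in OPC, and Acta2 averaged 24.2 CPM in adult NSC and 46.7 in postnatal NSC. Of the 4 markers tested, 1 was called lower and 0 higher in adult against postnatal NSC, against 27.9% and 25.2% of all genes. In OPC against postnatal NSC, 3 were called lower and 0 higher, against 22.7% and 22.4% of all genes. In OPC against adult NSC, 3 were called lower and 1 higher, against 24.7% and 26.3% of all genes. The part of these markers' cells in the Thbs2 levels was not tested.

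Thbs1 (ENSMUSG00000040152.8, chr2:118111876-118127133, plus strand), the thrombospondin known for activating latent TGF-beta, was highest in postnatal NSC and most uneven there. It had 2.23, 1.1, 4.96 and 3.99 CPM in postnatal OPC 1 to 4, 3.6, 4.99, 4.17 and 5.49 CPM in adult NSC 1 to 4, and 65.0, 13.2, 43.5 and 7.11 CPM in postnatal NSC 1 to 4. Every postnatal NSC library was above every library of the other groups, which overlapped each other. Within postnatal NSC the highest value was 9.15 times the lowest, so the mean of 32.2 ± 27.1 CPM (SD, n = 4) describes no library closely. The log2 fold change was -3.41 ± 0.65 in OPC against postnatal NSC (10.6-fold lower), -2.82 ± 0.63 in adult against postnatal NSC (7.06-fold lower) and -0.59 ± 0.64 in OPC against adult NSC.

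Thbs3 (ENSMUSG00000028047.11, chr3:89215180-89226837, plus strand), a thrombospondin best known from cartilage and bone, spread least within each group among the thrombospondins. It had 12.5, 9.91, 10.1 and 8.31 CPM in postnatal OPC 1 to 4, 14.3, 14.7, 14.6 and 18.0 CPM in adult NSC 1 to 4, and 14.4, 26.7, 26.7 and 18.5 CPM in postnatal NSC 1 to 4. All OPC libraries were below all NSC libraries, and the NSC groups overlapped. The log2 fold change was -1.08 ± 0.20 in OPC against postnatal NSC (2.11-fold lower), -0.49 ± 0.20 in adult against postnatal NSC and -0.59 ± 0.20 in OPC against adult NSC (1.51-fold lower). Thbs3 shares 318 bases, 6.59% of its exons, with Mtx1 on the opposite strand, whose counts were 265.5% of those of Thbs3 in OPC, 210.1% in adult NSC and 157.9% in postnatal NSC. Since the strand setting of the counting was not given in the sources used here, the Thbs3 values are uncertain to the extent of that overlap.

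Thbs4 (ENSMUSG00000021702.7, chr13:92751590-92794818, minus strand), known from muscle, tendon and injured subventricular astrocytes, was close to the limit of detection in all groups. It had 8, 5, 15 and 19 counts in postnatal OPC 1 to 4, 9, 17, 18 and 10 in adult NSC 1 to 4, and 41, 54, 15 and 50 in the deeper postnatal NSC libraries 1 to 4. The level was 0.204 to 0.913 CPM in OPC, 0.491 to 1.01 in the adult and 0.376 to 1.24 in the postnatal NSC libraries, and all 3 ranges overlapped. The log2 fold change was -0.62 ± 0.47 in OPC against postnatal NSC, -0.25 ± 0.47 in adult against postnatal NSC and -0.37 ± 0.50 in OPC against adult NSC, none of which was called.

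Sparc (ENSMUSG00000018593.13, chr11:55394500-55423183, minus strand) was lower in every OPC library than in any NSC library. It had 136.4, 95.2, 142.5 and 98.5 CPM in postnatal OPC 1 to 4, 325.4, 321.8, 258.4 and 318.1 CPM in adult NSC 1 to 4, and 281.2, 365.2, 287.3 and 399.6 CPM in postnatal NSC 1 to 4. The OPC range lay apart from the NSC ranges, and those overlapped each other. The log2 fold change was -1.50 ± 0.16 in OPC against postnatal NSC (2.82-fold lower), -0.12 ± 0.16 in adult against postnatal NSC and -1.37 ± 0.16 in OPC against adult NSC (2.59-fold lower).

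Sparcl1 (ENSMUSG00000029309.7, chr5:104079111-104113733, minus strand), which encodes hevin, was the only one of the 7 genes with its lowest level in adult NSC. It had 130.1, 91.0, 63.0 and 130.0 CPM in postnatal OPC 1 to 4, 17.3, 22.1, 21.6 and 13.8 CPM in adult NSC 1 to 4, and 153.8, 84.0, 178.2 and 86.5 CPM in postnatal NSC 1 to 4. The adult libraries lay below all others, and the postnatal groups overlapped. The log2 fold change was -2.75 ± 0.31 in adult against postnatal NSC (6.71-fold lower), 2.47 ± 0.30 in OPC against adult NSC (5.53-fold higher) and -0.28 ± 0.28 in OPC against postnatal NSC. Without the libraries low in G1/S genes, the last value was -0.01. Also in adult against postnatal NSC, 4 of 7 astrocyte markers and 4 of 4 tested markers of myelinating oligodendrocytes were called lower and 0 of either higher. Called lower too were 4 of 6 oligodendrocyte precursor, 3 of 4 tested neuron and neuroblast, and 2 of 3 tested ependymal markers. Among tested markers of other cells, 0 of 2 endothelial, 1 of 4 pericyte and fibroblast and 0 of 1 microglia markers were called lower, and 0 higher. Of all genes, 27.9% were called lower and 25.2% higher. Of 6 neural stem markers, 2 were called higher and 1 lower, and 1 neuron and neuroblast marker was called higher. The part of any of these cells in the Sparcl1 level was not tested.

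**Figure D1:**
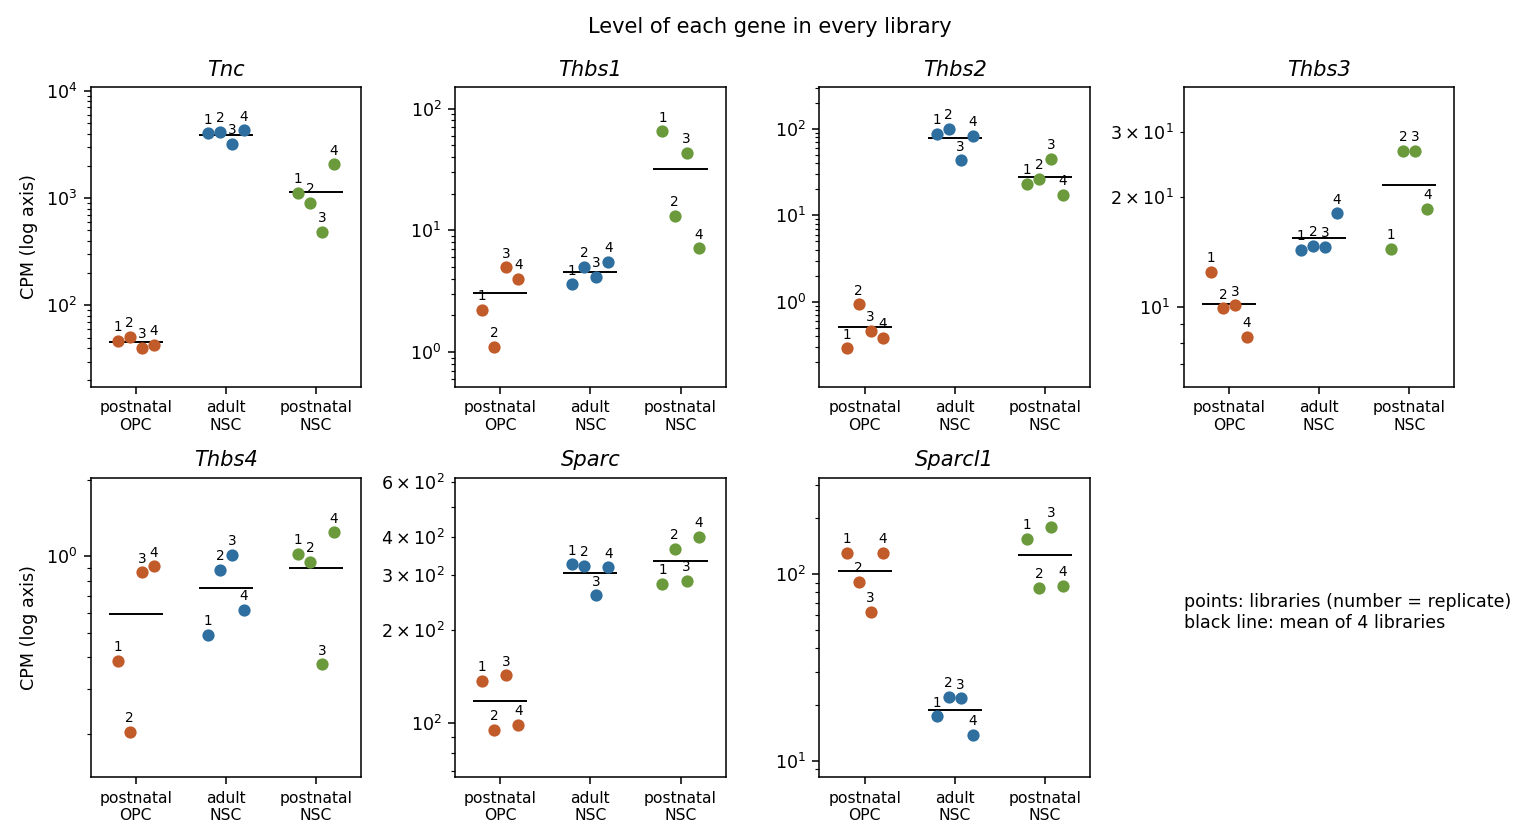
Level of each of the 7 genes in every library, in CPM on a log axis with its own range for each gene; points are libraries numbered by replicate, and the black line is the mean of 4. Tnc and Thbs2 are lowest in postnatal OPC and have their highest mean in adult NSC, Thbs1 is highest in postnatal NSC, and Sparcl1 is lowest in adult NSC.

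In OPC against postnatal NSC, 0 of the 7 genes were called higher and 5 lower at an adjusted p under 0.05 (edgeR, Benjamini-Hochberg over 16135 genes), where 22.4% of all genes were called higher and 22.7% lower, 45.1% in either direction. In 5 of 7 all OPC libraries were below all postnatal NSC libraries and in none above, against 16.9% and 18.0% of all genes, 34.9% together. The median log2 fold change was -1.50 for the 7 genes and -0.01 for all genes. In adult against postnatal NSC, 2 were called higher (Tnc and Thbs2) and 2 lower (Thbs1 and Sparcl1), against 25.2% and 27.9% of all genes, 53.1% together. The libraries did not overlap for 1 higher and 2 lower genes, against 27.2% and 26.0% of all genes, 53.2% together, and the median was -0.25 for the 7 genes and -0.03 for all. In OPC against adult NSC, 1 was called higher (Sparcl1) and 4 lower, against 26.3% and 24.7% of all genes, 51.0% together. The numbers without overlap were also 1 and 4, against 27.9% and 28.7% of all genes, 56.6% together. There the median was -0.59 for the 7 genes and 0.01 for all genes. Since the 7 genes were taken with these values known, nothing is read from the counts, and the 3 comparisons share libraries.

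**Figure D2:**
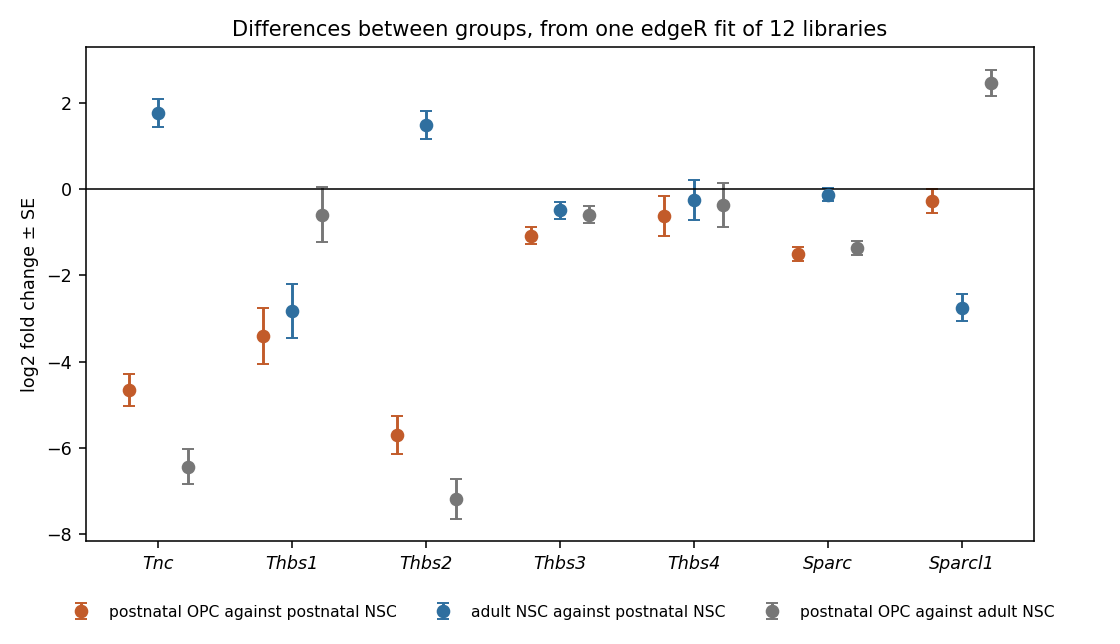
Log2 fold change of each gene in the 3 comparisons, from a single edgeR fit of 12 libraries. Points are estimates and bars their standard errors, derived from the F statistic of the test. Tnc and Thbs2 lie below 0 in both OPC comparisons and above 0 in adult against postnatal NSC, Sparcl1 shows the opposite signs in both comparisons with adult NSC, and the Thbs4 points lie at -0.62, -0.25 and -0.37.

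Set against each other per length, the 7 genes changed order between the cultures. In OPC, Sparcl1 averaged 95.9 TPM and Sparc 85.0 TPM, with overlapping ranges, followed by Tnc at 15.9 TPM, Thbs3 at 5.78 TPM, Thbs1 at 1.37 TPM, Thbs4 at 0.487 TPM and Thbs2 at 0.204 TPM. Of these, Thbs1 and Thbs4, and Thbs4 and Thbs2, overlapped. With the longest transcript as the length, Sparc came before Sparcl1 in OPC, at 115.5 against 84.3 TPM, and no other place in any group moved. In adult NSC, Tnc led at 1370.4 TPM, before Sparc at 219.9, Thbs2 at 30.5, Sparcl1 at 17.4, Thbs3 at 8.72, Thbs1 at 2.05 and Thbs4 at 0.625 TPM, where only Thbs2 and Sparcl1 overlapped. In postnatal NSC, Tnc averaged 407.9 TPM and Sparc 244.5 TPM, with overlapping ranges, before Sparcl1 at 119.3 TPM. Thbs1 at 14.8, Thbs3 at 12.4 and Thbs2 at 11.2 TPM overlapped each other there, and Thbs4 was lowest at 0.756 TPM.

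Tnc made up 6.77% to 10.0% of the summed TPM of the 7 genes in the OPC libraries, 82.7% to 84.0% in the adult and 28.7% to 65.0% in the postnatal NSC libraries. The leading thrombospondin also differed. It was Thbs3 in 4 of 4 OPC libraries, with 63.5% to 84.5% of the summed thrombospondin TPM, and Thbs2 in 4 of 4 adult NSC libraries, with 60.5% to 77.6%. In postnatal NSC it was Thbs1 in libraries 1 and 3, with 61.8% and 37.2%, and Thbs3 in libraries 2 and 4, with 46.9% and 48.9%. The summed thrombospondin level was 6.88 to 8.82 TPM in OPC, 28.4 to 49.9 in the adult and 21.7 to 54.1 in the postnatal NSC libraries. The ratio of Sparcl1 to Sparc, both in TPM, was 1.23, 1.23, 0.57 and 1.7 in OPC 1 to 4, 0.0686, 0.0887, 0.108 and 0.056 in adult NSC 1 to 4, and 0.705, 0.297, 0.8 and 0.279 in postnatal NSC 1 to 4. The adult ratios lay below all others, and both postnatal groups overlapped.

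**Figure D3:**
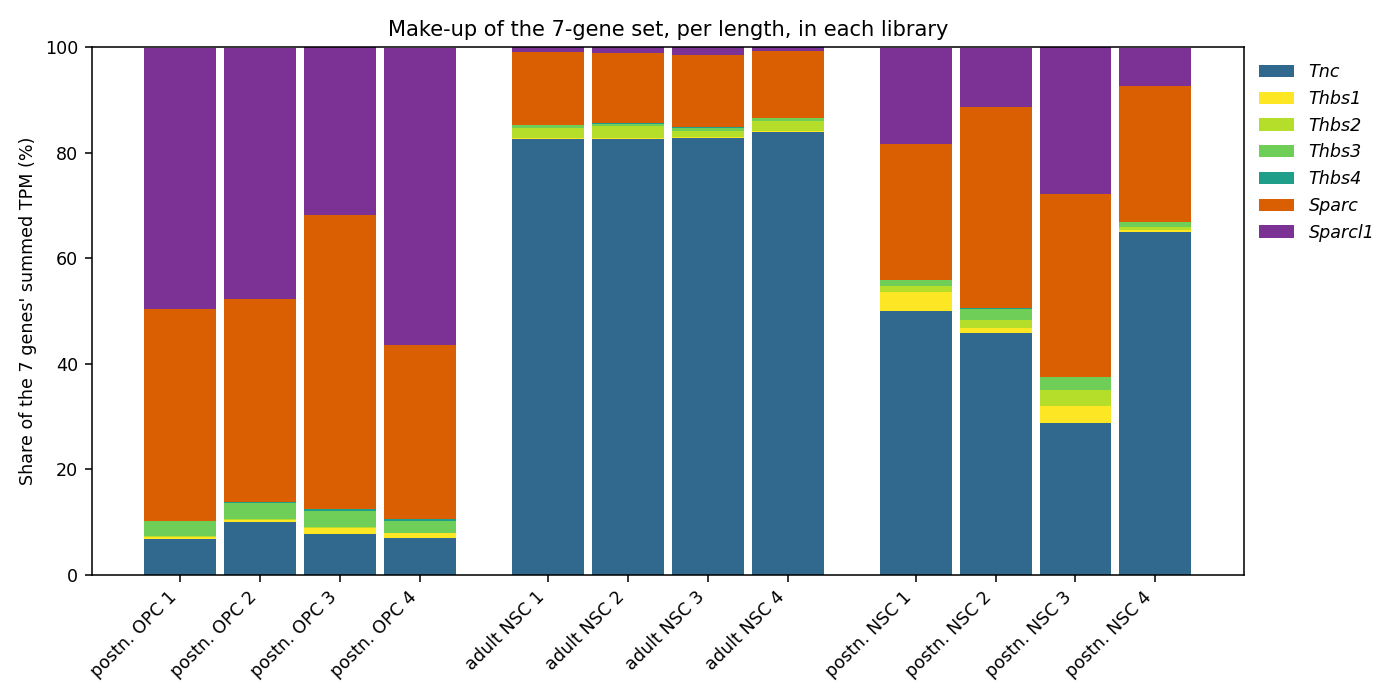
Share of each gene in the summed TPM of the 7 genes, in percent, with a stacked bar for each library. Tnc takes 82.7% to 84.0% in adult NSC and at most 10.0% in postnatal OPC, where Sparc and Sparcl1 fill most of the bar.

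The postnatal NSC libraries differed among themselves in more than depth. Thbs1 and Sparcl1 were both higher in libraries 1 and 3 than in libraries 2 and 4. Tnc was lowest and Thbs2 highest in library 3, and Tnc was highest and Thbs2 lowest in library 4. The summed level of 14 immediate early genes, which cells induce within minutes of a stimulus, was 4952.9, 6623.4, 13291.1 and 5238.9 CPM in postnatal NSC 1 to 4, against 279.4, 100.7, 281.7 and 279.1 CPM in OPC 1 to 4 and 642.7, 658.5, 589.5 and 646.9 CPM in adult NSC 1 to 4. Library 3 was the highest in these genes and the lowest in G1/S genes, and their part in the levels of the 7 genes was not tested. Without library 3 and postnatal OPC 2, the log2 fold change of Tnc in adult against postnatal NSC was 1.51, that of Thbs2 1.80, that of Thbs1 -2.65 and that of Sparcl1 -2.54.

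**Figure D4:**
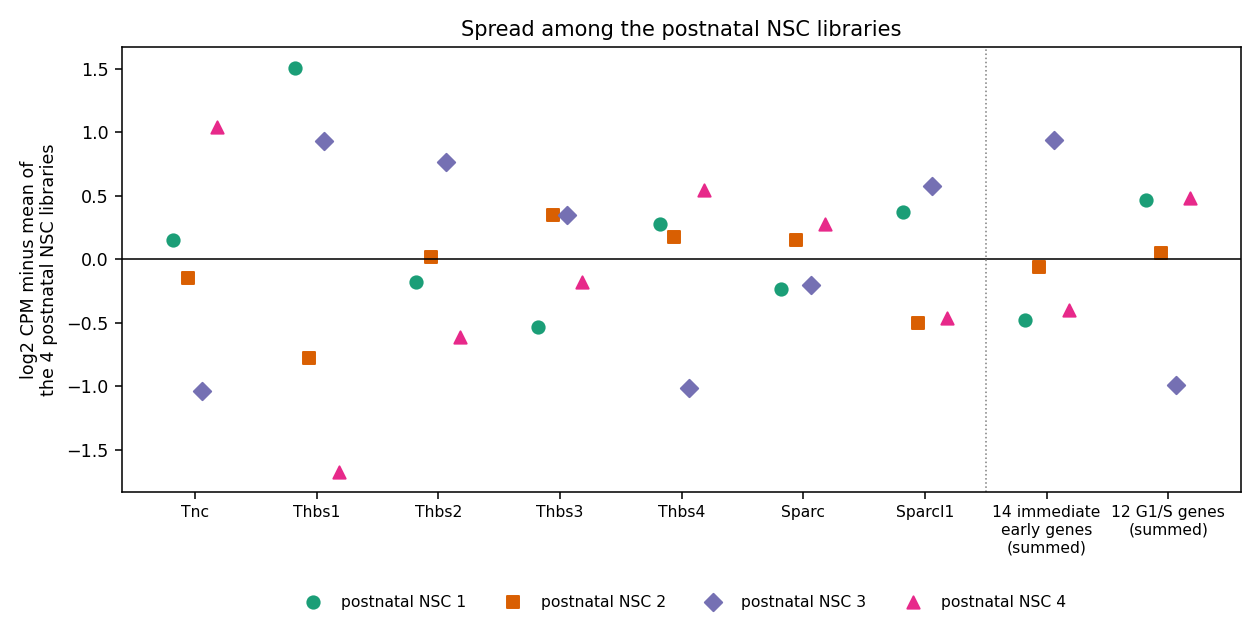
Deviation of each postnatal NSC library from the mean of the 4, in log2 CPM, for the 7 genes and for the summed immediate early and G1/S genes; each symbol is a library. Thbs1 spreads most, and library 3 lies lowest for Tnc and the G1/S genes and highest for Thbs2, Sparcl1 and the immediate early genes.

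Receptors and binding partners of these proteins on cells were counted next. Of 29 measured, 8 rose and 8 fell in OPC against postnatal NSC (median log2 fold change -0.28), 13 rose and 5 fell in adult against postnatal NSC (median 0.45), and 7 rose and 15 fell in OPC against adult NSC (median -0.70). In OPC against postnatal NSC 27.6% were called in each direction, near the 22.4% higher and 22.7% lower of all genes. The share called higher was 44.8% in adult against postnatal NSC, against 25.2% of all genes, and in OPC against adult NSC 51.7% were called lower, against 24.7%. The 24.1% called higher in OPC against adult NSC was near the 26.3% of all genes. Called lower in adult against postnatal NSC were 17.2%, against 27.9% of all genes. Without adult NSC 2 or adult NSC 4, only 3 fell in adult against postnatal NSC. Among the partners of tenascin-C, the receptor phosphatase gene Ptprz1 had 4752.3 ± 331.2 CPM in OPC, against 2774.9 ± 187.7 in postnatal NSC (SD, n = 4 each; log2 fold change 0.78 ± 0.08, edgeR adjusted p = 1.84e-05). The cell adhesion gene Cntn1, whose product binds tenascins, rose 4.9-fold in OPC, to 816.2 ± 140.9 CPM against 166.6 ± 36.6 in postnatal NSC (edgeR adjusted p = 2.52e-06). Itga8, an integrin subunit that binds tenascin-C, rose to 23.6 ± 12.4 CPM in OPC against 2.61 ± 1.40 in postnatal NSC (edgeR adjusted p = 0.000195).

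Other receptors were lowest in OPC. Anxa2, a membrane-bound annexin that binds tenascin-C, averaged 4.71 ± 2.33 CPM in OPC, 58.5 ± 3.57 in adult NSC and 32.8 ± 10.0 in postnatal NSC, and it was 7.05-fold lower in OPC than in postnatal NSC (edgeR adjusted p = 3.7e-05). The fibronectin receptor subunit Itga5 fell by 3.46 and the heparan sulfate proteoglycan Sdc4 by 2.90 on the log2 scale in OPC against postnatal NSC (edgeR adjusted p = 7.71e-06 and 1.09e-05). In adult NSC, Itga4 rose 10.6-fold, to 154.8 ± 14.8 CPM against 14.7 ± 11.5 in postnatal NSC (log2 fold change 3.40, and 4.03 without postnatal NSC 4), Itga9, a tenascin-C receptor subunit, rose 2.83-fold, and Itgb1, the beta subunit these alpha chains pair with, rose 1.95-fold (edgeR adjusted p = 0.000478, 0.000687 and 0.000305). In OPC against adult NSC, Itga4 and Itgb1 fell 23.8-fold and 1.94-fold (edgeR adjusted p = 6.95e-05 and 0.000236). Itgb1 had a log2 fold change of 0.01 ± 0.15 in OPC against postnatal NSC, and Itga4 was not called there.

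Of the thrombospondin receptors, Cd47 averaged 74.8 CPM in OPC and 42.0 CPM in adult NSC, against a range of 44.2 to 57.5 CPM in postnatal NSC, and rose 1.54-fold in OPC against postnatal NSC (edgeR adjusted p = 0.000296) and 1.78-fold in OPC against adult NSC (edgeR adjusted p = 2.39e-05). Cacna2d1, which encodes alpha2delta-1, had a log2 fold change of 0.45 ± 0.14 in adult against postnatal NSC (edgeR adjusted p = 0.0164), a call lost in 3 of 20 alternatives. Lrp1, a clearance receptor for thrombospondins, fell 2.1-fold in adult NSC against postnatal NSC (edgeR adjusted p = 0.007), with overlapping libraries. Cd36, a scavenger receptor for thrombospondin-1, averaged 0.366 ± 0.267 CPM in OPC, 2.45 ± 0.508 in adult NSC and 0.643 ± 0.456 in postnatal NSC (SD, n = 4 each). It rose 3.83-fold in adult against postnatal NSC (edgeR adjusted p = 0.0127) and fell 6.78-fold in OPC against adult NSC (edgeR adjusted p = 0.0031), and its log2 fold change in OPC against postnatal NSC was -0.82 ± 0.64 (edgeR adjusted p = 0.311). Nlgn1, a synaptic adhesion gene whose product binds hevin, rose 2.43-fold in OPC against postnatal NSC, to 71.5 ± 8.15 CPM against 29.5 ± 5.23 (edgeR adjusted p = 1.41e-05). Stab1, a scavenger receptor for SPARC, was too low to be tested.

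**Figure D5:**
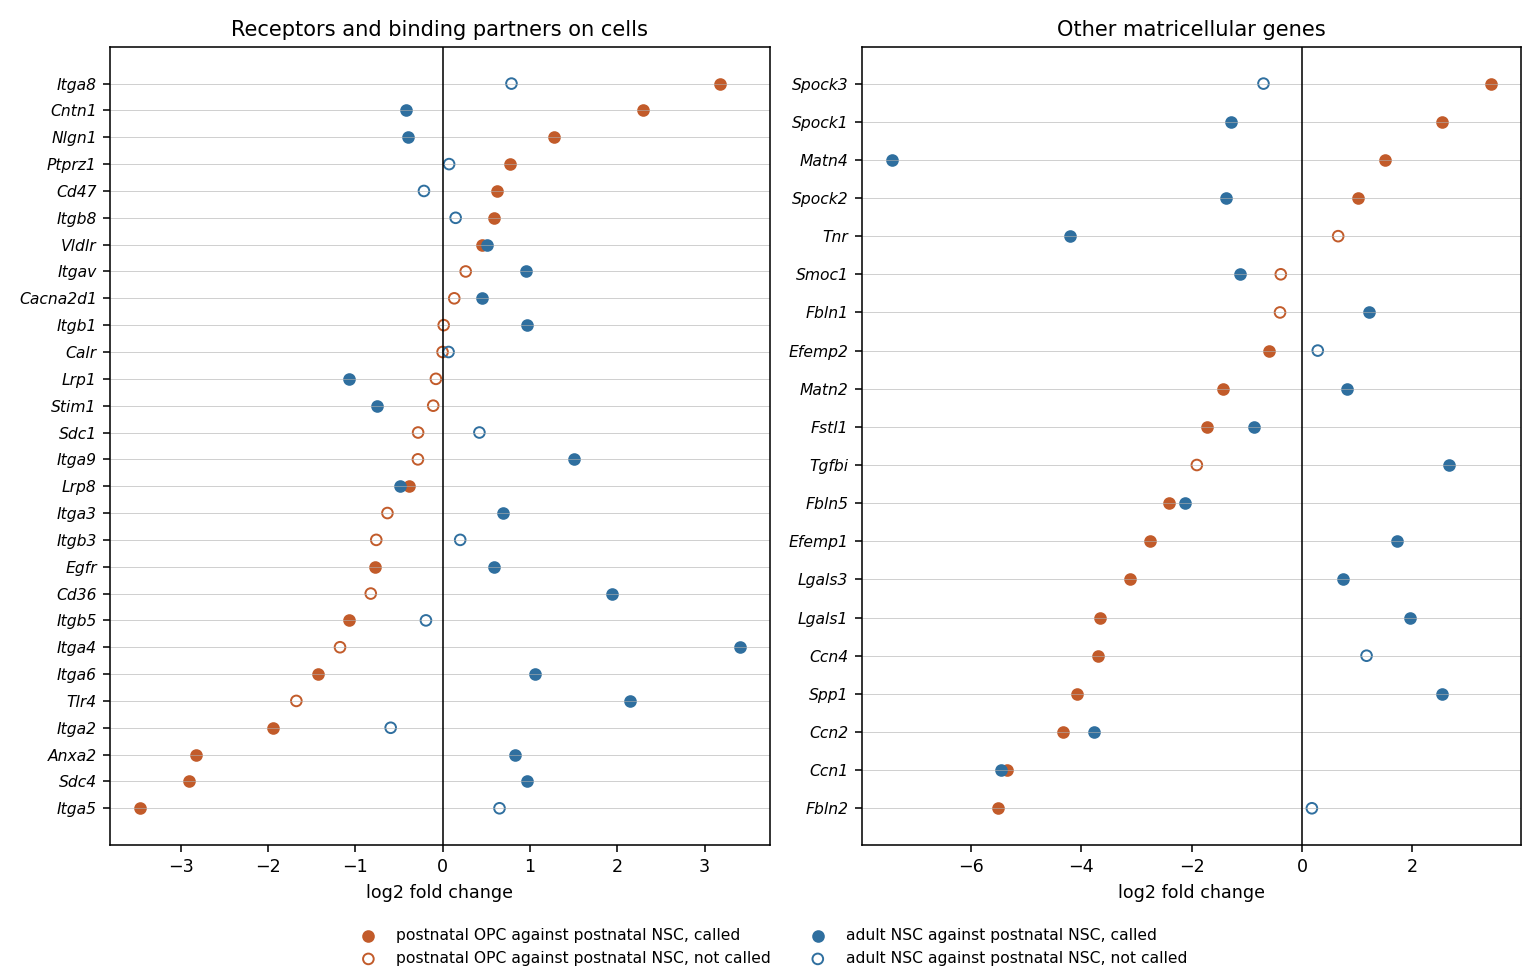
Log2 fold changes of receptors and of other matricellular genes in postnatal OPC and in adult NSC, each against postnatal NSC; filled points were called by edgeR at an adjusted p under 0.05, and both comparisons share the postnatal NSC libraries. Itga5, Sdc4 and Anxa2 lie lowest among the receptors in OPC, and Itga4 lies highest in adult NSC.

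Of 20 other matricellular genes measured, 4 rose and 12 fell in OPC against postnatal NSC (median -1.82), 7 rose and 9 fell in adult against postnatal NSC (median -0.26), and 6 rose and 11 fell in OPC against adult NSC (median -0.87). Of all genes, 22.4%, 25.2% and 26.3% were called higher and 22.7%, 27.9% and 24.7% lower in these comparisons, so that the 4 and 6 rises in OPC were near the shares of all genes. Tnr, which encodes the other brain tenascin, averaged 530.5 ± 363.7 CPM in OPC, 18.2 ± 3.77 in adult NSC and 336.5 ± 243.7 in postnatal NSC. Its adult level was 18.5-fold below that of postnatal NSC (edgeR adjusted p = 0.000162). A single library carried its OPC mean: OPC 2 had 1075.5 CPM and the other 3 had 330.0 to 367.6, a mean of 348.8. Without OPC 2 its log2 fold change in OPC against adult NSC was 4.27, against 4.87 with it. Matn4, a matrilin, averaged 118.5 ± 50.9 CPM in OPC, 0.231 ± 0.144 in adult NSC and 41.9 ± 15.9 in postnatal NSC, and fell 173.5-fold in adult against postnatal NSC (edgeR adjusted p = 9.41e-07). Spock2, which shares SPARC's calcium-binding module, rose 2.03-fold in OPC against postnatal NSC (edgeR adjusted p = 0.000338).

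Several others were lower in OPC, as Tnc was. Fbln2, a fibulin of elastic matrix, averaged 15.5 ± 12.5 CPM in OPC, 803.5 ± 33.6 in adult NSC and 709.5 ± 245.9 in postnatal NSC, a fall of 45.9-fold in OPC against postnatal NSC (edgeR adjusted p = 4.73e-05). The CCN genes Ccn1 and Ccn2, like Thbs1, were highest in postnatal NSC: Ccn1 averaged 13.1 ± 5.37 CPM in OPC, 12.2 ± 1.77 in adult NSC and 536.3 ± 322.3 in postnatal NSC, and Ccn2 averaged 0.673 ± 0.513 CPM in OPC, 0.957 ± 0.234 in adult NSC and 13.2 ± 10.9 in postnatal NSC. Both fell in OPC and in adult NSC against postnatal NSC (edgeR adjusted p = 3.08e-06 and 2.45e-06 for Ccn1, 0.000262 and 0.000501 for Ccn2). For Ccn2 the log2 fold changes were -4.33 in OPC and -3.78 in adult NSC, and -3.63 and -3.08 when postnatal NSC 1 was left out. Osteopontin (Spp1) and galectin-1 (Lgals1) rose 5.84-fold and 3.89-fold in adult against postnatal NSC (edgeR adjusted p = 0.0121 and 0.0161).

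Of 17 matrix components that these proteins bind, 2 rose and 13 fell in OPC against postnatal NSC (median -1.43), 5 rose and 7 fell in adult against postnatal NSC (median -0.14), and 3 rose and 11 fell in OPC against adult NSC (median -2.30). The shares called lower were 76.5%, 41.2% and 64.7%, against 22.7%, 27.9% and 24.7% of all genes, and the 29.4% called higher in adult against postnatal NSC was near the 25.2% of all genes. Called higher were 11.8% in OPC against postnatal NSC and 17.6% in OPC against adult NSC, against 22.4% and 26.3% of all genes. Without OPC 1, OPC 3 or postnatal NSC 2, 1 rose in the first comparison. Fibronectin (Fn1) fell by 3.46, nidogen-1 (Nid1) by 3.36, laminin beta-1 (Lamb1) by 3.31 and collagen I (Col1a1) by 4.80 on the log2 scale in OPC against postnatal NSC (edgeR adjusted p = 6.91e-06, 3.41e-05, 0.000421 and 3.84e-06). Col1a1 is also among the pericyte and fibroblast markers, whose sums were given with Thbs2. In adult NSC, fibrillin-2 (Fbn2) rose 4.59-fold and collagen V (Col5a1) 2.94-fold, and brevican (Bcan), a proteoglycan of the brain's perineuronal matrix, fell 4.17-fold, to 296.3 ± 13.4 CPM against 1234.8 ± 377.2 in postnatal NSC (edgeR adjusted p = 0.00729, 9.59e-05 and 2.48e-05).

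In the TGF-beta system, which thrombospondin-1 can activate, 15 genes were measured, of which 1 rose and 8 fell in OPC against postnatal NSC (median -1.01), 6 rose and 4 fell in adult against postnatal NSC (median 0.35), and 2 rose and 8 fell in OPC against adult NSC (median -0.72). In both OPC comparisons 53.3% were called lower, against 22.7% and 24.7% of all genes. In adult against postnatal NSC 26.7% were called lower, near the 27.9% of all genes. Called higher were 6.67% in OPC against postnatal NSC and 13.3% in OPC against adult NSC, against 22.4% and 26.3% of all genes. In adult against postnatal NSC 6 of the 15 were called higher, against 25.2% of all genes. The counts of 4 or 6 in adult against postnatal NSC rest on single libraries: 3 rose without adult NSC 1 or 2 and 2 rose without postnatal NSC 2, and 2 fell without adult NSC 1 or 3. The single rise in OPC against postnatal NSC was that of the type 1 receptor Tgfbr1 (1.72-fold, edgeR adjusted p = 0.00018), and 2 rose without OPC 2 or without postnatal NSC 3. In OPC against adult NSC, 0 to 4 rose when a library was left out. The type 2 receptor Tgfbr2 averaged 1.42 ± 0.72 CPM in OPC, 23.3 ± 2.30 in adult NSC and 9.19 ± 6.75 in postnatal NSC, and the signal transducer Smad3 averaged 14.4 ± 5.57 CPM in OPC, 100.2 ± 8.72 in adult NSC and 54.7 ± 21.9 in postnatal NSC. Both fell in OPC against adult NSC, 16.7-fold and 6.99-fold (edgeR adjusted p = 0.000114 and 3.52e-05).

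Of 16 proteases and inhibitors that act on these proteins or their matrix, 1 rose and 9 fell in OPC against postnatal NSC (median -0.54), 3 rose and 5 fell in adult against postnatal NSC (median -0.10), and 5 rose and 8 fell in OPC against adult NSC (median -0.69). Of all genes, 22.7% and 24.7% were called lower in the OPC comparisons. The 31.2% called higher in OPC against adult NSC was near the 26.3% of all genes. In OPC against postnatal NSC 6.25% were called higher, against 22.4% of all genes. The 18.8% higher and 31.2% lower in adult against postnatal NSC were near the 25.2% and 27.9% of all genes. The count of 1 was 0 to 3 when a library was left out, and the count of 5 falls in adult NSC was 3 without each adult library in turn and without postnatal NSC 3. Adamts4 and Adamts1, proteases of matrix proteoglycans, fell 11.5-fold and 7.99-fold in OPC against postnatal NSC, and the membrane protease Mmp14 fell 4.57-fold (edgeR adjusted p = 2.36e-05, 0.000114 and 9.72e-07). In adult against postnatal NSC, Adamts9 rose 3.46-fold and Mmp2 3.28-fold (edgeR adjusted p = 0.00067 and 0.00626). The inhibitor Timp3 averaged 217.0 ± 52.5 CPM in OPC, 105.4 ± 11.1 in adult NSC and 305.3 ± 166.8 in postnatal NSC, and fell 2.89-fold in adult against postnatal NSC (edgeR adjusted p = 0.00145).

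All 14 immediate early genes measured fell in OPC against postnatal NSC (median -5.56), 13 fell in adult against postnatal NSC (median -4.20), and 8 fell in OPC against adult NSC (median -1.55), where 22.7%, 27.9% and 24.7% of all genes were called lower. Fos averaged 8.64 ± 4.50 CPM in OPC, 27.2 ± 3.19 in adult NSC and 1407.8 ± 840.4 in postnatal NSC (edgeR adjusted p = 3.42e-06 in OPC and 1.13e-05 in adult NSC, each against postnatal NSC). Thbs1, known as a gene that serum induces, was also highest in postnatal NSC. Within that group the library with the highest immediate early sum, library 3, had the second value of Thbs1 at 43.5 CPM, and library 1, with the lowest sum, had the highest at 65.0 CPM, and the relation was not tested. Without OPC 2, 1 immediate early gene rose in OPC against adult NSC.

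The likeness of other genes to each of the 7 was measured as Pearson's r of log2 CPM over the 12 libraries, among 11196 protein-coding genes, as a description: the libraries fall into 3 groups and share their scaling. Most like Tnc were Ociad2 (r = 0.990), Tmem184b (0.988) and Ubtd1 (0.987). Most like Thbs1 were Maff (0.977), Plk3 (0.957) and Otud1 (0.954), of which Maff averaged 4.3 CPM in OPC, 8.88 in adult NSC and 42.9 in postnatal NSC. Most like Thbs2 were Tmsb4x (0.977), Arhgef17 (0.976) and Bcl2l12 (0.975), and most like Thbs3 were Zhx2 (0.961), Plcd1 (0.960) and St5 (0.956). For Sparc they were Btbd17 (0.982), Hmg20b (0.981) and Spata13 (0.977), and for Sparcl1 Arhgef26 (0.971), Nrp2 (0.960) and Tom1 (0.959). Thbs4 had the weakest likeness, with Tacc3 (0.921), Txn1 (0.899) and Cenpa (0.897), at counts too sparse to read it. With Spearman's correlation, 4 of the 21 genes named were chosen again: Tmsb4x for Thbs2, Zhx2 and St5 for Thbs3, and Arhgef26 for Sparcl1. Among the 7 genes themselves r was 0.958 for Tnc and Thbs2, 0.898 for Tnc and Sparc, and -0.652 for Tnc and Sparcl1.

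Genes that overlap another gene were checked where they touch the 7. Tnc shares 176 exon bases (2.26%) with 8030451A03Rik on the opposite strand, whose counts were at most 0.131% of those of Tnc in any group. Thbs1 shares 208 exon bases (3.42%) with Gm29233, which had 0 counts in every library, and Sparcl1 overlaps Gm26703 with 0 exon bases in common. Of stretches of 50 bases, 3.54% of those of Thbs3, 1.89% of Thbs1, 1.04% of Tnc and 0.601% of Sparc also occur in other genes. Matches on either strand were counted. For Thbs3, Thbs1 and Tnc the only other gene was the overlapping one on the opposite strand, Mtx1, Gm29233 and 8030451A03Rik. The thrombospondins share none with each other.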

How the data were processed

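RNA of 12 cultures was sequenced after library preparation with the Illumina TruSeq Stranded mRNA kit, per the labels. The values are read counts per gene as deposited, not normalized, with a column per library. The submitters' processing notes name the GRCm38 build and the tools STAR, featureCounts 1.22.2 and FastQC. Their settings, strand included, and the annotation release: not given in the sources used here. Of 55401 identifiers, 55141 were found in GENCODE M21 (GRCm38), which gave symbols, coordinates and exons, and all columns were matched to a sample by name. Library totals, given with the results, set the precision, and counting intervals are not the main error here, since libraries of the same group differed beyond sampling noise (chi-square divided by its degrees of freedom 3.98 or more).

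Genes were filtered with filterByExpr (minimum count 10, minimum total 15), scaled by TMM and tested in a single edgeR 4.0.16 quasi-likelihood fit of the 12 libraries with a term per group (R 4.3.3, limma 3.58.1), two-sided, with Benjamini-Hochberg adjustment over 16135 genes. Genes were called at an adjusted p under 0.05. The SE of a log2 fold change was derived from the test, as its absolute value divided by the square root of F. The 3 groups share a single estimate of the spread there, though their spreads differ. CPM used the TMM-scaled library sizes, TPM the union of exons, and likeness log2 CPM with a prior count of 2. The fit was tested on simulated data with a single dispersion of 0.0513 for all genes and groups, unlike the real libraries. It recovered 8.2% to 12.1% of 1.5-fold, 65.7% to 75.8% of 2-fold and 100% of 4-fold changes. A small difference that was not called is therefore not shown to be absent. Replicates came from separate litters per the labels, which do not say that a number marks the same litter across groups, so there was no block. The alternatives were DESeq2 1.42.0 and its size factors, no filter, a replicate block, a Y-linked covariate, equal depth by thinning, fits of 2 groups, each library left out, both libraries with low G1/S genes left out, the longest transcript as length and Spearman's correlation.

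The 7 genes, the gene lists and the marker lists were chosen with earlier results of these data known. From each list, up to 4 called genes per direction with the largest fold change and a mean of at least 5 CPM in the higher group could be named, with receptors also where not called. For likeness the 3 protein-coding genes with the highest correlation and at least 5 CPM were named. Protein sequences and the promoters of Thbs1 and Sparcl1 were not used here. A gene of the receptor list enters its counts but is not reported here.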

Additional observations from a re-analysis of the deposited data

Results flagged for a closer look

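In 9 of 69 tested sets of 4 libraries, the highest or lowest library lay further from the others than Dixon's critical value for 4 values allows, where chance gives about 1 in 20. Among the 7 genes, Thbs3 was at 18.0 CPM in adult NSC 4 against 14.3 to 14.7 in the other adult libraries. Sparc was at 258.4 CPM in adult NSC 3 against 318.1 to 325.4 in the others.

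Among the summed lists, postnatal OPC 2 stood apart in 5. It was at 1995.9 CPM for the other matricellular genes (967.1 to 1032.1 in the other OPC libraries), 1452.7 CPM for proteases and inhibitors (2218.0 to 2338.5), and 100.7 CPM for immediate early genes (279.1 to 281.7). It was at 7666.2 CPM for oligodendrocyte precursor markers (4496.3 to 4817.7) and 9.62 CPM for pericyte and fibroblast markers (3.8 to 4.79). Adult NSC 4 was at 1704.3 CPM for astrocyte markers (1602.1 to 1615.2 in the other adult libraries), and adult NSC 3 at 2154.4 CPM for G1/S genes (1900.8 to 1929.1). Postnatal OPC 2 and postnatal NSC 3, the libraries low in G1/S genes, did not pass the critical value for that sum.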

How the results depend on the processing

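Of 1288 alternative values of the counts, log2 fold changes of the 7 genes, orders and likeness choices, 1239 kept their direction and moved by less than the spread between replicates or stayed within 1.5 times the count, 49 moved and none reversed. No fold change of the 7 genes was among those that moved, but their limit was wide. It was the larger SD of log2 CPM of the 2 groups, such as 1.477 for Thbs1 and 0.859 for Tnc in postnatal NSC. Thbs1 in OPC against adult NSC, at -0.59, ranged over -0.91 to -0.29 with a library left out and still did not count as moved. With single libraries left out, the log2 fold change in OPC against postnatal NSC was -4.91 to -4.25 for Tnc, -3.79 to -2.84 for Thbs1, -6.24 to -5.38 for Thbs2 and -0.47 to -0.07 for Sparcl1. In adult against postnatal NSC it was 1.52 to 2.18 for Tnc, 1.27 to 1.81 for Thbs2, -3.20 to -2.26 for Thbs1 and -2.94 to -2.53 for Sparcl1. In OPC against adult NSC it was -6.52 to -6.38 for Tnc and -7.69 to -6.98 for Thbs2. With the replicate number as a block, Tnc was at -4.51 in OPC and 1.90 in adult NSC against postnatal NSC, 3423 genes were higher and 3388 lower in OPC against postnatal NSC, and 3896 were higher and 4147 lower in adult against postnatal NSC. Deviations of same-numbered libraries from their group means correlated at -0.363 to 0.325, so the numbers were not read as pairs.

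The counts that moved were small ones, and beyond the settings themselves the cause was not tested. In OPC against postnatal NSC, matrix partners higher were 2, but 1 at equal depth, 0 in the fit of 2 groups and 1 to 3 with a library left out. TGF-beta genes higher were 1, but 2 with the block, 3 without both libraries low in G1/S genes and 1 to 2 with a library left out, and proteases higher were 1, but 0 in the fit of 2 groups, 4 without both libraries and 0 to 3 with a library left out. In adult against postnatal NSC, the ranges with a library left out were 3 to 7 for receptors lower (5), 2 to 6 for TGF-beta genes higher (6), 2 to 4 for TGF-beta genes lower (4) and 3 to 6 for proteases lower (5), the last being 3 with the Y-linked covariate. In OPC against adult NSC, TGF-beta genes higher were 2, but 1 with the block, 4 in the fit of 2 groups and 0 to 4 with a library left out, and immediate early genes higher were 0, but 1 without both libraries and 0 to 1 with a library left out. With the longest transcript, Sparcl1 had place 2 and Sparc place 1 in OPC. With Spearman's correlation, the genes most like a member that were chosen again were 0 for Tnc, 0 for Thbs1, 1 for Thbs2, 0 for Thbs4, 0 for Sparc and 1 for Sparcl1, of 3 each. Of the calls of single list genes under alternatives, 135 were lost and 29 gained, such as those of Itga3 (lost in 15 of 20) and Egfr (10) in adult against postnatal NSC. Few counts limit Thbs4 in every group and Thbs2 in OPC.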
